A study of Homo sapiens with 54 samples.

Results

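The transcripts described here encode kinases of the RAF-MEK-ERK-RSK cascade, measured in WM266-4, an established human melanoma cell line. The list holds 9 kinases and was set by gene symbol: ARAF, MAP2K1, MAP2K2, MAPK3, RPS6KA1, RPS6KA2, RPS6KA3, KSR1 and 1 more. Of the 9, 8 are paired with a probe set in the probe table, out of 17875 probe sets with 1 gene symbol, and the ninth is not analysed here. KSR1 lay below the level at which genes were tested, which left 7 kinases with a test. Total RNA went onto 54 Affymetrix arrays, 3 for each of 18 groups. One set of groups received LGX818 (encorafenib, a RAF inhibitor; 0.05 uM), trametinib (a MEK inhibitor; 0.003 uM), MEK162 (binimetinib, also a MEK inhibitor; 0.3 uM), an ERK1/2 inhibitor that the labels do not name (0.2 uM) or DMSO, the vehicle, for 3 h or 24 h. In the other set, the shRNA arm, cells carried an inducible shRNA labelled shERK1, one labelled shERK2 or a non-targeting one (NT), induced with 100 ng/ml doxycycline for 3 or 7 days. These were set beside parental cells of the same days, for which one label field names doxycycline and another says untreated. The cell line field gives WM266-4 for all samples, while the growth protocol writes WM266-6 for the shRNA lines. The labels do not say whether the shRNA lines are clones or pools, nor whether the 3 arrays of a group, lettered a, b and c, came from separate cultures. Every p below therefore measures only the spread between those arrays.

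In this cascade, a RAF kinase phosphorylates and activates the MEK kinases, and these in turn activate the ERK kinases. ERK phosphorylates transcription factors in the nucleus and the RSK kinases, which carry the signal on to translation, survival and cell growth. The pathway is active without growth factors in many melanomas, and inhibitors of its RAF and MEK steps are used to treat them. In the list, ARAF is one of the RAF kinases, MAP2K1 and MAP2K2 encode MEK1 and MEK2, and MAPK3 encodes ERK1, the labelled target of shERK1. RPS6KA1, RPS6KA3 and RPS6KA2 encode RSK1, RSK2 and RSK3, and KSR1 encodes a RAF-related scaffold that brings MEK to RAF.

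Expression values are log2 levels from RMA, so a difference of 1 is a 2-fold change. A transcript is said to have risen or fallen where limma gave a Benjamini-Hochberg adjusted p under 0.05, adjusted over all genes tested in that comparison. Differences are given with the standard error (SE) of that fit, and group means with their SD over 3 arrays. The probe sets of different genes have different affinities, so levels are compared between groups for 1 gene at a time.

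The cells carried the transcripts of their labelled type. All 7 measured melanocytic markers (MITF, MLANA, PMEL, TYR, TYRP1, SOX10 and S100B) lay above the median of all values, 7.86 log2, in every group. None of 3 epithelial, 3 leukocyte or 3 endothelial markers did in any group, and of 5 fibroblast markers only COL1A2 did, at 12.5 to 13.4 log2. The difference between the 3' and 5' control probe sets of GAPDH, a measure of RNA integrity, had a median of 0.25 log2 over the arrays. Array a of the shERK2 day 7 group stood apart, at 1.53 log2 for GAPDH against 0.71 log2 for the next array (c of the ERK inhibitor at 3 h), and at 3.41 log2 for ACTB against 2.14 log2 for the next. It also had the highest array median, 8.04 log2, and the lowest mean correlation with its own group, 0.9905. For the 7 tested kinases, differences with the shERK2 day 7 group were therefore also fitted without it. Values of KSR1 and of the genes named from lists in that group include it.

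After 24 h of pathway inhibition, RPS6KA1 fell and RPS6KA2 rose with each of the 4 inhibitors. The MEK2 transcript MAP2K2 rose modestly with each of them, and ARAF rose with LGX818 and with the ERK inhibitor. MAPK3, MAP2K1 and RPS6KA3 did not pass the test with any inhibitor at 24 h. In cells with shERK1, MAPK3 fell to 34.4% of its NT level by day 3, and RPS6KA2 fell with it, the opposite direction from its change under the inhibitors. In cells with shERK2, RPS6KA1 fell and MAPK3 did not pass the test. In RNA from whole cultures, fewer cells carrying a transcript and less of it per cell cannot be told apart.

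**Figure D1:**
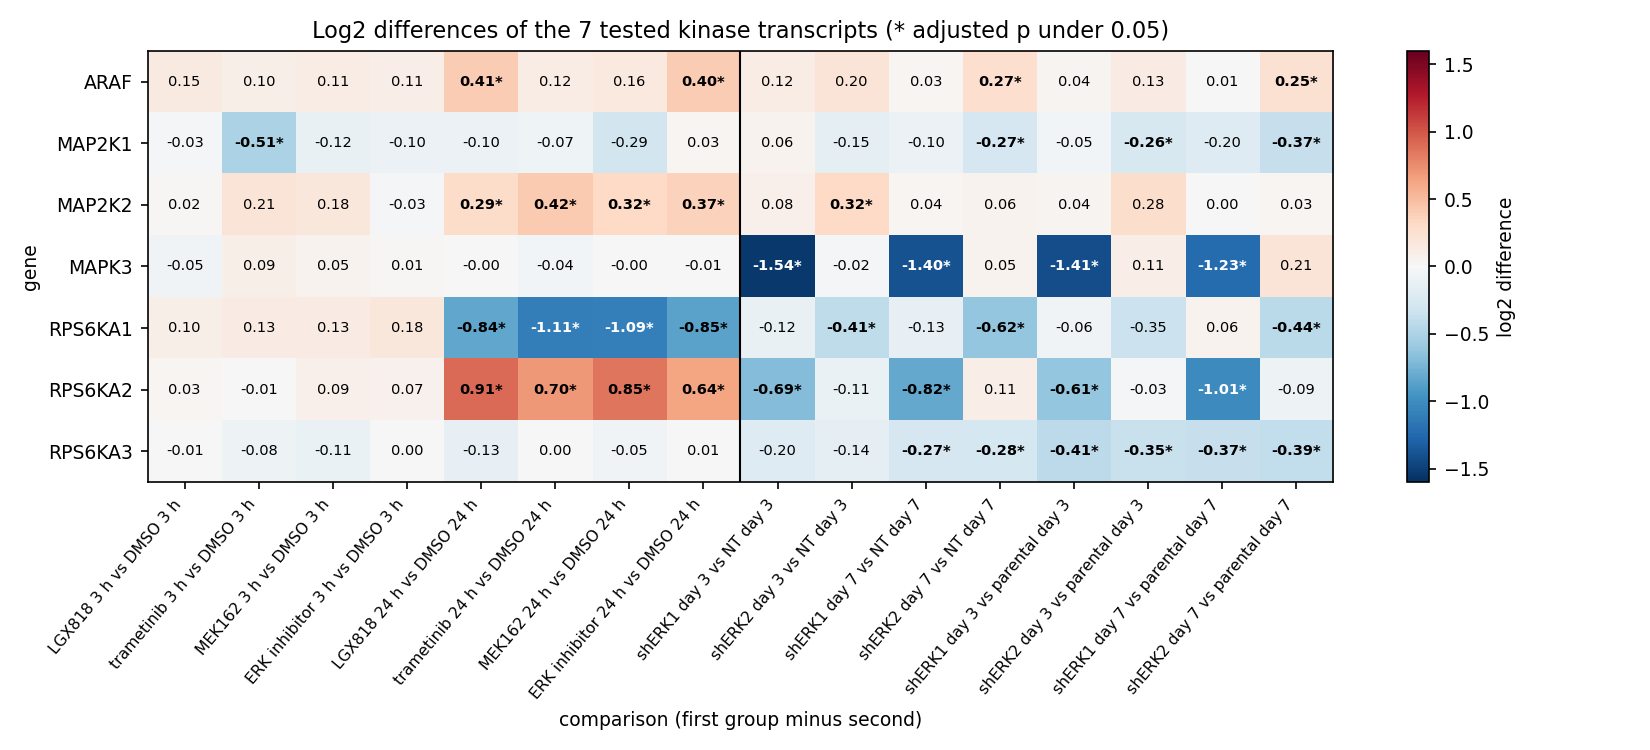
Log2 differences of the 7 tested kinase transcripts (rows) in 16 comparisons (columns); the first-named group of each comparison minus the second, with an asterisk where the adjusted p was under 0.05. RPS6KA1 is at or below -0.84 and RPS6KA2 at or above 0.64 in all 4 inhibitor comparisons at 24 h, and MAPK3 is below -1.2 with shERK1 only.

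To show the sequence next to the start of the kinases whose transcripts moved most, the 250 bases before the first-listed start of MAPK3, RPS6KA1 and RPS6KA2 are given, from RefSeq on build GRCh38.p14, 5′ to 3′ on the gene's own strand. The MAPK3 window is chr16:30123221-30123470 on the minus strand, that of RPS6KA1 is chr1:26529511-26529760 on the plus strand, and that of RPS6KA2 is chr6:166862526-166862775 on the minus strand. Capitals mark matches to the 5 motifs searched.
MAPK3: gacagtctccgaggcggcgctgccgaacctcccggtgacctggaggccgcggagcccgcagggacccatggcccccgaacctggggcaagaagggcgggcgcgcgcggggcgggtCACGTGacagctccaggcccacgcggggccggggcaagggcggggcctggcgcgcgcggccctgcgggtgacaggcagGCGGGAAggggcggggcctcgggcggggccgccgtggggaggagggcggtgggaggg
RPS6KA1: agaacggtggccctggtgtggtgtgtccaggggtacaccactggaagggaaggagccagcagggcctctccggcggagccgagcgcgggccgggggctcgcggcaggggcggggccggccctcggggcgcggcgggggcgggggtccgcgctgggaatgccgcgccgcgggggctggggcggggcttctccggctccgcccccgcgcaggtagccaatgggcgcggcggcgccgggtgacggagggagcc
RPS6KA2: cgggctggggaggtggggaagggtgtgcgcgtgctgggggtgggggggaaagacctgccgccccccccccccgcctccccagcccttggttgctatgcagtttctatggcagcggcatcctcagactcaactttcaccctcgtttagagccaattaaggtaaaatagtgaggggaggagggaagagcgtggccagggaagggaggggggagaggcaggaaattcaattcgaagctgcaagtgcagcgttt

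The motifs were searched on both strands as these letters: AP-1 as TGANTCA, ETS as CCGGAAG, the E-box as CACGTG, E2F as TTCCCGC and CRE as TGACGTCA. The MAPK3 window holds an E-box match from 135 to 130 bases before the start and an E2F match, on the opposite strand, from 57 to 51 bases before it. No match lies in the windows printed for RPS6KA1 and RPS6KA2, nor in the 1 further listed start of RPS6KA1 and the 2 further starts of RPS6KA2. Over the 8 measured kinases, 16 starts are listed, and 3 of the windows hold a match: that of MAPK3, the second of RPS6KA3 (E2F) and the second of KSR1 (AP-1). Among 35116 windows of the same length before all listed starts, 6.57% hold the AP-1 letters, 8.52% ETS, 6.34% the E-box, 5.52% E2F and 1.65% CRE. The 3 windows printed have a GC content of 80.4% for MAPK3, 80.0% for RPS6KA1 and 61.2% for RPS6KA2. The array does not tell transcripts from different starts apart. MAPK3 passed the test only in comparisons with shERK1, and a part of these sequences in any change was not tested.

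At 3 h most tested transcripts of a list of reporters of ERK activity had fallen with each inhibitor. SPRY4, a feedback inhibitor of receptor signalling, fell, with log2 differences of -6.36 with LGX818, -6.08 with trametinib, -6.36 with MEK162 and -4.84 with the ERK inhibitor (SE 0.15 each). Its means with the first 3 of these, 6.81, 7.09 and 6.81 log2, lie below the level for testing. Of 9 tested transcripts of the list, 7 fell with LGX818, 8 with trametinib, 7 with MEK162 and 7 with the ERK inhibitor. Of all genes tested, 11.7%, 11.3%, 13.2% and 10.4% passed in either direction in that order. The median log2 differences of the 9 were -0.92, -0.98, -0.80 and -0.59, against medians over all genes of 0.015, 0.035, 0.033 and 0.035. The list was chosen with earlier results of these data known, so its counts are a description and not a test of ERK activity.

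The cascade's own kinases changed little at 3 h, and so did most genes. The median size of the log2 difference over all genes was 0.089 with LGX818, 0.098 with trametinib, 0.102 with MEK162 and 0.106 with the ERK inhibitor. With only 7 kinases, the counts below are not read as different from the shares of all genes. None of the 7 passed with LGX818, where 11.7% of all genes tested did, with MEK162 (13.2% of all genes) or with the ERK inhibitor (10.4% of all genes), and in none of these 3 comparisons did 1 reach an unadjusted p under 0.05. With trametinib, where 11.3% of all genes passed, MAP2K1 alone did. Its levels were 11.41, 12.09 and 11.55 log2 with trametinib, against 12.17, 12.24 and 12.16 log2 with DMSO. The 3 trametinib arrays lie below the 3 DMSO arrays, but b lies close to them and far from a and c. The difference of -0.51 (SE 0.16, adjusted p = 0.0422) did not pass with all genes included (adjusted p = 0.0659), without the intensity trend (0.0530), or without array a or c of trametinib or any 1 of the DMSO arrays (0.0803 to 0.248). All other 3 h differences of the 7 kinases lay between -0.12 and 0.21. The highest of them, MAP2K2 with trametinib, passed without trametinib array b (0.34, adjusted p = 0.0265).

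At 24 h most of the transcriptome had changed. With LGX818, 69.2% of all genes tested passed (35.4% rose and 33.8% fell). With trametinib 64.5% passed (31.6% rose and 33% fell), with MEK162 67.2% (33.4% rose and 33.8% fell), and with the ERK inhibitor 65.2% (33.6% rose and 31.5% fell). Of the 7 kinases, 3 rose and 1 fell with LGX818, 2 rose and 1 fell with trametinib, 2 rose and 1 fell with MEK162, and 3 rose and 1 fell with the ERK inhibitor. Counting both directions together, 4, 3, 3 and 4 of 7 passed. With only 7 kinases, these counts are not read as different from the shares of all genes. The 4 comparisons share the same 3 DMSO arrays, and the doses differed, so the inhibitors' values stand side by side and were not tested against each other.

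ARAF had 8.47, 8.57 and 8.48 log2 with LGX818, 8.23, 8.30 and 8.12 log2 with trametinib, 8.24, 8.25 and 8.30 log2 with MEK162, and 8.57, 8.53 and 8.41 log2 with the ERK inhibitor. The DMSO arrays of 24 h had 8.05, 8.05 and 8.20 log2. The LGX818, MEK162 and ERK inhibitor arrays all lie above the DMSO arrays, while those of trametinib overlap them. ARAF rose by 0.41 (SE 0.097, adjusted p = 5.92e-04) with LGX818 and by 0.40 (SE 0.097, adjusted p = 7.47e-04) with the ERK inhibitor. The differences were 0.12 (95% interval -0.083 to 0.32, adjusted p = 0.301) with trametinib and 0.16 (-0.038 to 0.36, adjusted p = 0.144) with MEK162. Once arrays were centred on their medians, the MEK162 difference of 0.19 passed (adjusted p = 0.0369).

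MAP2K1 had no difference past the threshold: -0.096 with LGX818, -0.070 with trametinib, -0.29 with MEK162 and 0.029 with the ERK inhibitor (SE 0.16 each). Its arrays scattered more than those of the other kinases. The DMSO arrays had 11.34, 11.94 and 12.06 log2 and the MEK162 arrays 11.07, 11.74 and 11.66 log2, with array a low in both groups. Without DMSO array a, but with the low MEK162 array a kept, the MEK162 difference was -0.51 (adjusted p = 0.00633). Without MEK162 array b it was -0.41 (adjusted p = 0.0448).

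MAP2K2 had 9.40, 9.62 and 9.75 log2 with LGX818, 9.80, 9.70 and 9.64 log2 with trametinib, 9.61, 9.58 and 9.65 log2 with MEK162, and 9.63, 9.74 and 9.61 log2 with the ERK inhibitor. The DMSO arrays had 9.50, 9.17 and 9.21 log2, so LGX818 array a falls among them and the arrays of the other 3 inhibitors all lie above. MAP2K2 rose by 0.29 (SE 0.11, adjusted p = 0.0162) with LGX818, by 0.42 (SE 0.11, adjusted p = 0.00119) with trametinib, by 0.32 (SE 0.11, adjusted p = 0.00956) with MEK162 and by 0.37 (SE 0.11, adjusted p = 0.00352) with the ERK inhibitor. The rises with trametinib and the ERK inhibitor passed in all 13 alternative fits. The LGX818 rise did not pass without DMSO array b (0.23, adjusted p = 0.0856), DMSO array c (0.25, adjusted p = 0.0660) or LGX818 array c (0.21, adjusted p = 0.108), and the MEK162 rise did not pass without DMSO array b (0.26, adjusted p = 0.0569).

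MAPK3 stayed close to its vehicle level. It averaged 9.61 ± 0.16, 9.57 ± 0.086, 9.61 ± 0.12 and 9.60 ± 0.020 log2 with LGX818, trametinib, MEK162 and the ERK inhibitor, against 9.61 ± 0.12 log2 with DMSO (SD, n = 3 each). The 95% intervals of the 4 differences all lay within -0.20 and 0.16.

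**Figure D2:**
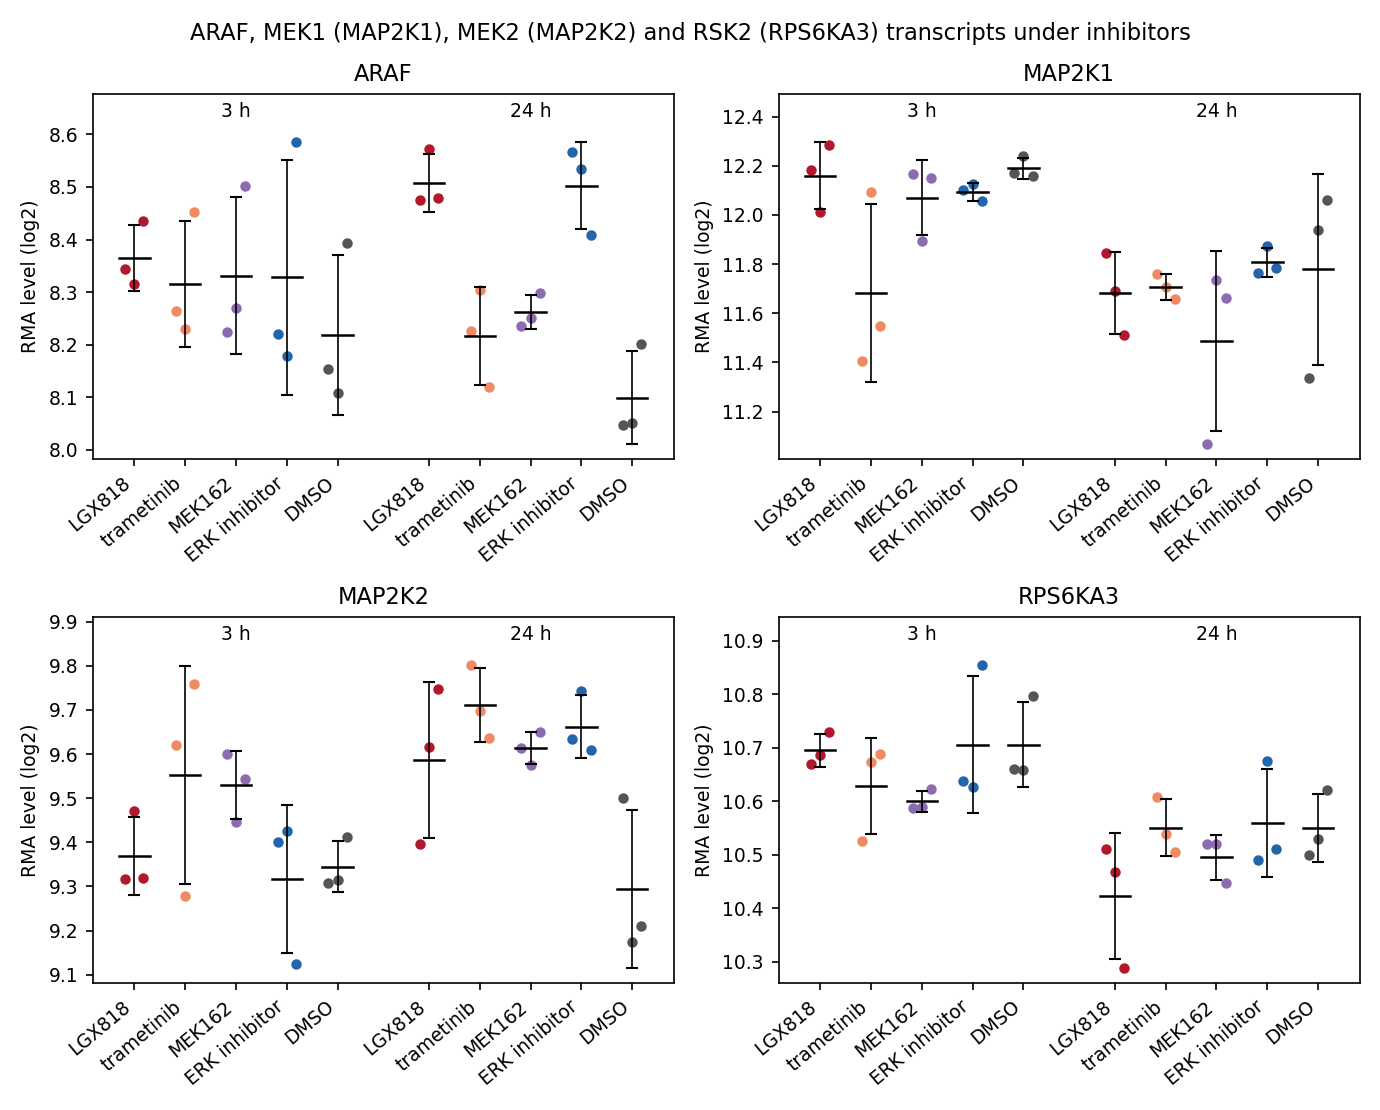
RMA log2 levels of ARAF, MAP2K1, MAP2K2 and RPS6KA3 in each array of the inhibitor arm, by agent and time; points are arrays, bars the mean and SD of 3. MAP2K2 is above its DMSO mean in each inhibitor group at 24 h, and the 24 h DMSO arrays of MAP2K1 are spread from 11.34 to 12.06.

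RPS6KA1, the RSK1 transcript, had 8.87, 8.82 and 8.73 log2 after 24 h with LGX818, and 8.60, 8.58 and 8.41 log2 with trametinib. It had 8.37, 8.49 and 8.80 log2 with MEK162, and 8.999, 8.77 and 8.61 log2 with the ERK inhibitor. The DMSO arrays had 9.62, 9.57 and 9.74 log2, all above the 12 inhibitor arrays. RPS6KA1 fell to 56.0% of its DMSO level with LGX818 (log2 difference -0.84, SE 0.11, adjusted p = 1.66e-07) and to 46.3% with trametinib (-1.11, SE 0.11, adjusted p = 1.20e-09). It fell to 47.0% with MEK162 (-1.09, SE 0.11, adjusted p = 1.61e-09) and to 55.4% with the ERK inhibitor (-0.85, SE 0.11, adjusted p = 1.49e-07). By size of change it ranked 1729 of 9703 genes with LGX818, 909 with trametinib, 1048 with MEK162 and 1383 with the ERK inhibitor.

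RPS6KA2, the RSK3 transcript, went the other way. It had 10.73, 10.77 and 10.71 log2 with LGX818, and 10.54, 10.55 and 10.49 log2 with trametinib. It had 10.61, 10.70 and 10.72 log2 with MEK162, and 10.49, 10.39 and 10.50 log2 with the ERK inhibitor. The DMSO arrays had 9.75, 9.91 and 9.81 log2, all below the inhibitor arrays. RPS6KA2 rose 1.88-fold with LGX818 (log2 difference 0.91, SE 0.068, adjusted p = 3.55e-12) and 1.62-fold with trametinib (0.70, SE 0.068, adjusted p = 8.49e-10). It rose 1.80-fold with MEK162 (0.85, SE 0.068, adjusted p = 1.47e-11) and 1.55-fold with the ERK inhibitor (0.64, SE 0.068, adjusted p = 5.16e-09). The RPS6KA1 and RPS6KA2 calls held in all 13 alternative fits of each comparison.

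RPS6KA3, the RSK2 transcript, did not pass with any inhibitor at 24 h. It averaged 10.42 ± 0.12 log2 with LGX818, 10.55 ± 0.053 log2 with trametinib, 10.50 ± 0.042 log2 with MEK162, 10.56 ± 0.10 log2 with the ERK inhibitor and 10.55 ± 0.063 log2 with DMSO (SD, n = 3 each). Its 4 differences lay between -0.13 and 0.0087. Without LGX818 array a the LGX818 difference was -0.17 (adjusted p = 0.0468).

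**Figure D3:**
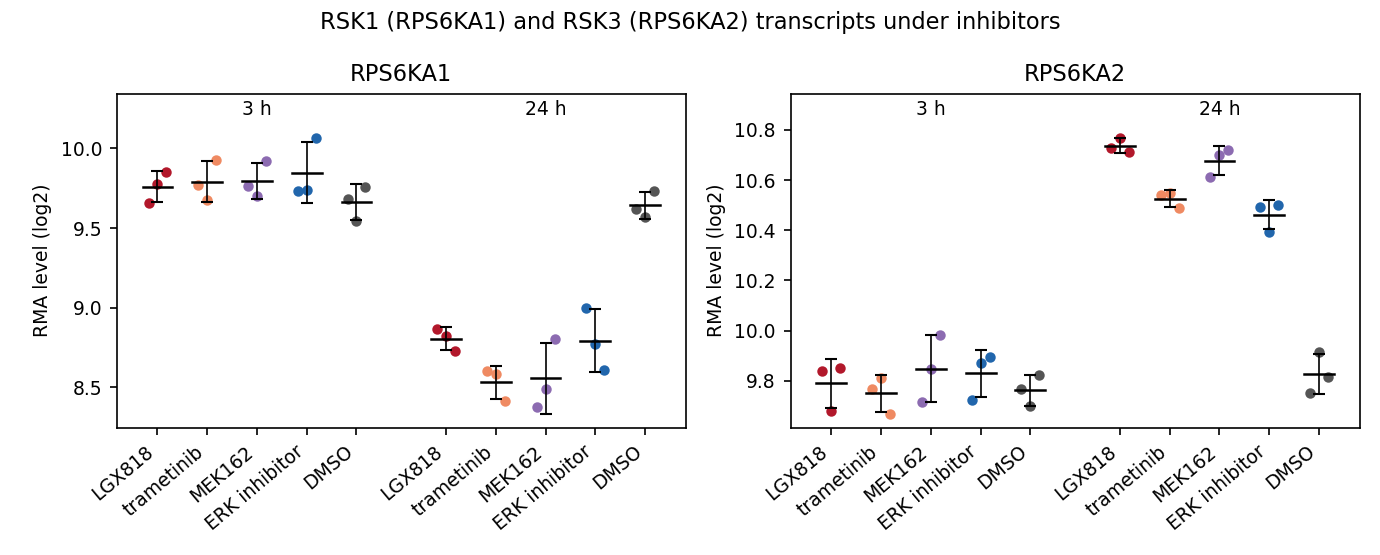
RMA log2 levels of RPS6KA1 and RPS6KA2 in each array of the inhibitor arm, by agent and time; points are arrays, bars the mean and SD of 3. At 24 h the RPS6KA1 arrays of every inhibitor sit at or below 8.999, under the DMSO arrays, and the RPS6KA2 arrays at or above 10.39, over the DMSO arrays.

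Whether the effect over DMSO differed between the times was tested as the 24 h effect minus the 3 h effect. For RPS6KA1 the difference was -0.93 with LGX818, -1.24 with trametinib, -1.22 with MEK162 and -1.04 with the ERK inhibitor (SE 0.15 each, adjusted p from 1.78e-07 to 1.26e-05). For RPS6KA2 it was 0.88, 0.71, 0.77 and 0.57 in the same order (SE 0.095 each, adjusted p from 1.36e-08 to 1.80e-05). These were the only kinases that passed with LGX818, trametinib and MEK162, where 52%, 49.7% and 50.9% of all genes did. With the ERK inhibitor, where 48.7% of all genes passed, MAP2K2 also did (0.40, SE 0.15, adjusted p = 0.0298). That call was lost without array c of the ERK inhibitor at 3 h (0.30, adjusted p = 0.0964), the array with the second-highest GAPDH difference. It was also lost without ERK inhibitor 24 h array b, DMSO 24 h array b or c, or DMSO 3 h array c (adjusted p from 0.0647 to 0.0831). ARAF, at 0.29 (adjusted p = 0.0809), passed without array c of the ERK inhibitor at 3 h (0.42, adjusted p = 0.00673) and with centred arrays (0.32, adjusted p = 0.0206). With 1 array left out, MAP2K2 passed with LGX818 (0.36 without LGX818 24 h array a, 0.37 without DMSO 24 h array a) and MAP2K1 with trametinib (0.64 without trametinib 3 h array b, 0.58 without DMSO 24 h array c). In DMSO cells, none of the 7 kinases passed between 24 h and 3 h, where 31.4% of all genes did and 3 of the kinases had an unadjusted p under 0.05. MAP2K1 averaged 11.78 ± 0.39 log2 at 24 h and 12.19 ± 0.043 log2 at 3 h (difference -0.41, SE 0.16, adjusted p = 0.0558), and it passed without DMSO 24 h array b (-0.49, adjusted p = 0.0468) or c (-0.55, adjusted p = 0.0200).

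MAPK3 checks the shERK1 label. On day 3 it had 8.02, 8.28 and 8.19 log2 with shERK1 and 9.78, 9.63 and 9.65 log2 with shERK2, against 9.66, 9.67 and 9.78 log2 with NT and 9.56, 9.59 and 9.58 log2 in parental cells. On day 7 it had 7.99, 8.49 and 7.98 log2 with shERK1 and 9.87, 9.54 and 9.40 log2 with shERK2, against 9.48, 9.55 and 9.63 log2 with NT and 9.30, 9.36 and 9.51 log2 in parental cells. The 6 shERK1 arrays lie below every other array of the series, and array b of day 7 is the highest of them. Against NT, MAPK3 fell with shERK1, with differences of -1.54 on day 3 (SE 0.12, adjusted p = 3.24e-08) and -1.40 on day 7 (SE 0.12, adjusted p = 7.45e-08). Against parental cells they were -1.41 (adjusted p = 7.03e-09) and -1.23 (adjusted p = 2.91e-08), and against shERK2 -1.53 (adjusted p = 1.18e-09) and -1.45 (adjusted p = 7.27e-10), day 3 first. All shRNA comparisons of a day share their NT or parental arrays. All 6 calls held in every alternative fit. The shERK1 effect over NT on day 7 minus that on day 3 was 0.14 (95% interval -0.20 to 0.49, adjusted p = 0.816).

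RPS6KA2 fell in shERK1 cells on both days. On day 3 it had 9.20, 9.40 and 9.08 log2 with shERK1 and 9.85, 9.76 and 9.82 log2 with shERK2, against 9.91, 9.91 and 9.93 log2 with NT and 9.86, 9.87 and 9.79 log2 in parental cells. On day 7 it had 8.70, 8.74 and 8.74 log2 with shERK1 and 9.85, 9.52 and 9.59 log2 with shERK2, against 9.58, 9.55 and 9.51 log2 with NT and 9.66, 9.80 and 9.76 log2 in parental cells. The shERK1 arrays of each day lie below all other arrays of that day. Against NT, RPS6KA2 fell to 62.0% on day 3 (-0.69, SE 0.077, adjusted p = 7.24e-06) and to 56.6% on day 7 (-0.82, SE 0.077, adjusted p = 1.84e-07). Against parental cells the differences were -0.61 (adjusted p = 3.31e-06) and -1.01 (adjusted p = 7.11e-10), and against shERK2 -0.58 (adjusted p = 4.02e-06) and -0.93 (adjusted p = 9.37e-10), day 3 first, and all 6 calls held in every alternative fit. The effect over NT on day 7 minus that on day 3 was -0.13 (95% interval -0.36 to 0.094, adjusted p = 0.708).

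MAPK3 and RPS6KA2 were the 2 kinases that passed with shERK1 against NT on day 3, where 4.66% of all genes did, and by size of change they rank 3 and 78 of 9779 genes. On day 7, where 17.9% of all genes passed (8.74% rose and 9.16% fell), RPS6KA3 fell as well, and the 3 rank 40 (MAPK3), 154 (RPS6KA2) and 1704 (RPS6KA3). Against parental cells the same 3 kinases fell on day 3, where 21.2% of all genes passed, and on day 7, where 39.6% did. MAP2K1 differed from parental cells by -0.20 on day 7 (adjusted p = 0.0524), and by -0.27 (adjusted p = 0.0226) without shERK1 array b. It also passed with the array letter as a block (adjusted p = 0.0435) and with only the groups compared (adjusted p = 0.0176). None of the 7 passed in the difference of the shERK1 effects on day 7 and day 3, where 0.522% of all genes did and none of the kinases had an unadjusted p under 0.05.

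The RPS6KA3 arrays of every line with an shRNA, NT included, lay below the parental arrays of the same day. On day 3 it had 10.09, 10.06 and 10.08 log2 with shERK1 and 10.10, 10.17 and 10.13 log2 with shERK2, against 10.31, 10.31 and 10.22 log2 with NT and 10.43, 10.53 and 10.52 log2 in parental cells. The 4 groups of day 3 do not overlap. On day 7 it had 10.07, 10.12 and 10.12 log2 with shERK1 and 10.24, 9.92 and 10.11 log2 with shERK2, against 10.34, 10.35 and 10.43 log2 with NT and 10.52, 10.44 and 10.48 log2 in parental cells. Against NT the shERK1 difference was -0.20 on day 3 (SE 0.063, adjusted p = 0.0728) and -0.27 on day 7 (SE 0.063, adjusted p = 0.00493). The day 3 difference passed once arrays were centred on their medians (-0.19, adjusted p = 0.0441). Against parental cells it was -0.41 on day 3 (adjusted p = 3.63e-05) and -0.37 on day 7 (adjusted p = 5.79e-05). NT cells themselves differed from parental cells by -0.21 on day 3 (SE 0.063, adjusted p = 0.0274), in a comparison where 11.9% of all genes passed and RPS6KA3 alone of the 7 did. That call was lost when any 1 NT array, or parental array b or c, was left out (adjusted p from 0.0523 to 0.139). On day 7, NT and parental cells differed in none of the 7 kinases, where 16.4% of all genes passed and 1 kinase had an unadjusted p under 0.05.

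**Figure D4:**
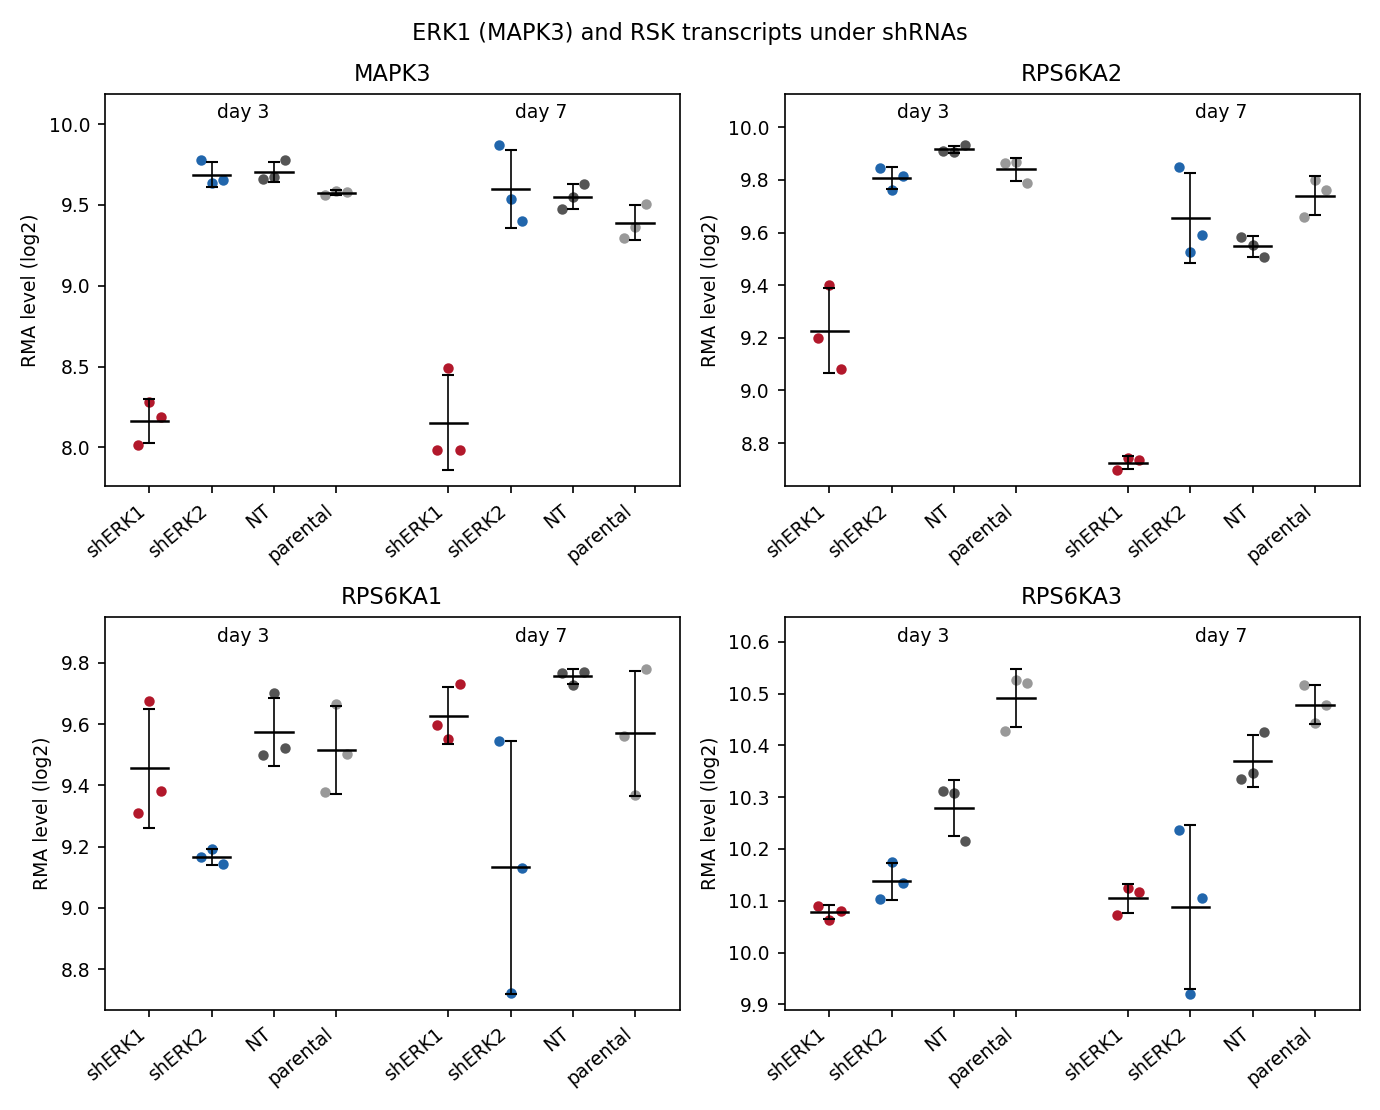
RMA log2 levels of MAPK3, RPS6KA2, RPS6KA1 and RPS6KA3 in each array of the shRNA arm, by line and day; points are arrays in the order a, b, c, bars the mean and SD of 3. MAPK3 and RPS6KA2 are low with shERK1 only, and the 3 shERK2 day 7 arrays of RPS6KA1 are spread from 8.72 to 9.55.

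The shRNA labelled shERK2 left MAPK3 at 9.69 ± 0.076 log2 on day 3 and 9.60 ± 0.24 log2 on day 7, against 9.70 ± 0.064 and 9.55 ± 0.076 log2 with NT (SD, n = 3 each). Against parental cells MAPK3 differed by 0.21 on day 7 (adjusted p = 0.127), and by 0.31 (adjusted p = 0.0396) without shERK2 array c. The level of the shRNA's own labelled target is not analysed here. Of the 7 kinases, RPS6KA1 had the largest difference from NT on both days. On day 3 it had 9.17, 9.19 and 9.14 log2 with shERK2, against 9.50, 9.70 and 9.52 log2 with NT and 9.38, 9.67 and 9.50 log2 in parental cells. On day 7 it had 9.55, 8.72 and 9.13 log2 with shERK2, against 9.77, 9.73 and 9.77 log2 with NT and 9.56, 9.37 and 9.78 log2 in parental cells. The shERK2 arrays of both days lie below the NT arrays of the same day, and on day 7 array a, the one that stood apart, is the closest to them. Against NT, RPS6KA1 fell, with differences of -0.41 on day 3 (SE 0.14, adjusted p = 0.0330) and -0.62 on day 7 (SE 0.14, adjusted p = 7.22e-04). The day 3 call was lost when any 1 shERK2 array, or NT array b or c, was left out (adjusted p from 0.0571 to 0.124). The day 7 call held in all 13 alternative fits, and without array a the difference was -0.83 (adjusted p = 3.36e-06). Against parental cells the difference was -0.35 on day 3 (adjusted p = 0.0775) and -0.44 on day 7 (adjusted p = 0.0123). The day 3 difference passed with centred arrays (-0.38, adjusted p = 0.0204), with all arrays fitted together (adjusted p = 0.0383) and with only the groups compared (adjusted p = 0.00242). The day 7 call against parental cells was lost without parental array c (-0.33, adjusted p = 0.0724) or shERK2 array b (-0.23, adjusted p = 0.108) and with only the groups compared (adjusted p = 0.155), and without shERK2 array a the difference was -0.64 (adjusted p = 9.37e-05).

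The comparisons with shERK2 called many genes: 33% of all genes against NT and 27% against parental cells on day 3, then 64.2% against NT (32.8% rose and 31.5% fell) and 60% against parental cells on day 7. Of the 7 kinases, 2, 2, 4 and 4 passed in these comparisons. On day 3, MAP2K2 had 9.43, 9.34 and 9.38 log2 with shERK2, against 9.15, 9.05 and 8.98 log2 with NT, groups that do not overlap. It rose by 0.32 against NT (SE 0.10, adjusted p = 0.0210), a call lost without shERK2 array a, NT array b or NT array c (adjusted p from 0.0552 to 0.0846) and with arrays centred on their medians (0.28, adjusted p = 0.0735). Against parental cells, MAP2K1 fell (-0.26, SE 0.082, adjusted p = 0.0225) and so did RPS6KA3 (-0.35, SE 0.063, adjusted p = 1.62e-04). The MAP2K1 call was lost without shERK2 array a or c or parental array b or c (adjusted p from 0.0716 to 0.116), and with all arrays fitted together (0.171). MAP2K2 differed from parental cells by 0.28 (adjusted p = 0.0514). That difference passed with all arrays fitted together (adjusted p = 0.0450) and with only the groups compared (adjusted p = 0.00362). The RPS6KA3 difference from NT on day 3 was -0.14 (adjusted p = 0.0886), and -0.18 (adjusted p = 0.0101) with centred arrays.

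On day 7, ARAF had 8.79, 8.22 and 8.58 log2 with shERK2, against 8.30, 8.18 and 8.29 log2 with NT, groups that overlap, and array a is the highest. ARAF rose by 0.27 against NT (SE 0.098, adjusted p = 0.0191) and by 0.25 against parental cells (adjusted p = 0.0337). Without array a the differences were 0.14 (adjusted p = 0.162) and 0.12 (adjusted p = 0.263). The call against NT was also lost without shERK2 array c (0.25, adjusted p = 0.0578) or NT array b (0.24, adjusted p = 0.0739), and that against parental cells without shERK2 array c (0.22, adjusted p = 0.0899) or parental array a (0.26, adjusted p = 0.0596) or b (0.20, adjusted p = 0.139). Neither passed with centred arrays (adjusted p = 0.0635 and 0.123) or with only the groups compared (adjusted p = 0.192 and 0.266), and the call against parental cells was also lost with no filter (adjusted p = 0.0516). MAP2K2 had 8.79, 9.39 and 9.26 log2 with shERK2, against 8.95, 9.15 and 9.15 log2 with NT, and array a is the lowest. Its difference from NT was 0.062 (adjusted p = 0.614), and 0.24 (adjusted p = 0.00731) without array a. From parental cells it was 0.029 (adjusted p = 0.824), and 0.21 (adjusted p = 0.0204) without array a. The part of RNA integrity in these differences was not tested.

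MAP2K1 had 11.77, 11.90 and 12.02 log2 with shERK2 on day 7, against 12.31, 12.10 and 12.08 log2 with NT. It fell against NT (-0.27, SE 0.082, adjusted p = 0.00769) and against parental cells (-0.37, adjusted p = 5.57e-04). Without array a these were -0.20 (adjusted p = 0.0392) and -0.31 (adjusted p = 0.00319). The call against NT was lost without NT array a (-0.19, adjusted p = 0.0625), with all arrays fitted together (adjusted p = 0.0895) and with only the groups compared (adjusted p = 0.0559). RPS6KA3 fell against NT (-0.28, SE 0.063, adjusted p = 5.28e-04) and against parental cells (-0.39, adjusted p = 1.73e-05), with -0.36 and -0.47 without array a. The call against NT was lost with only the groups compared in the fit (adjusted p = 0.0628). RPS6KA2 differed by 0.11 from NT (adjusted p = 0.232) and by -0.086 from parental cells (adjusted p = 0.348), and without array a by 0.010 and by -0.18 (adjusted p = 0.0306). None of the 7 passed in the shERK2 effect on day 7 minus that on day 3, where 23.9% of all genes did and none had an unadjusted p under 0.05. Without array a, RPS6KA3 passed there (-0.21, adjusted p = 0.0391), and without array b MAP2K2 (-0.38, adjusted p = 0.0335) and RPS6KA2 (0.28, adjusted p = 0.0498) did.

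Set directly against each other, shERK1 and shERK2 cells differed in MAPK3 and RPS6KA2 on day 3, where 35.5% of all genes passed. MAP2K1 differed by 0.21 that day (adjusted p = 0.0512), and by 0.27 (adjusted p = 0.0288) without shERK1 array c or 0.28 (adjusted p = 0.0208) without shERK2 array b. With centred arrays MAP2K1 (0.26, adjusted p = 0.0299) and RPS6KA1 (0.34, adjusted p = 0.0288) passed too. On day 7, where 68.7% of all genes passed, 4 kinases did. MAPK3 and RPS6KA2 were lower with shERK1 (-1.31 and -0.83 without the array that stood apart). RPS6KA1 was higher with shERK1, at 9.60, 9.55 and 9.73 log2 with shERK1 against 9.55, 8.72 and 9.13 log2 with shERK2 (0.49, SE 0.14, adjusted p = 0.00450, and 0.70 without that array), a call lost with only the groups compared (adjusted p = 0.0729). ARAF was lower with shERK1 (-0.24, adjusted p = 0.0340), a call lost without shERK2 array a (-0.11, adjusted p = 0.274) or c (-0.22, adjusted p = 0.0908), without any 1 shERK1 array (adjusted p from 0.0582 to 0.0791) with centred arrays (-0.16, adjusted p = 0.0807) and with only the groups compared (adjusted p = 0.227). MAP2K2 passed only without shERK2 array a (-0.20, adjusted p = 0.0194). MAP2K1 differed by 0.17 (adjusted p = 0.0740) and passed without shERK1 array a (0.22, adjusted p = 0.0375), without shERK2 array c (0.23, adjusted p = 0.0267) and with centred arrays (0.25, adjusted p = 0.0204).

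Over all 18 groups, RPS6KA2 had the widest range of group means, 8.73 log2 in shERK1 day 7 cells to 10.74 log2 in LGX818 24 h cells, and its arrays within a group had a median SD of 0.060 log2. From the top its order is LGX818, MEK162, trametinib and the ERK inhibitor at 24 h, then 12 groups between 9.92 and 9.55 log2 whose neighbours overlap, and last shERK1 on day 3 and on day 7. MEK162 and trametinib, the ERK inhibitor and NT day 3, NT day 7 and shERK1 day 3, and the 2 shERK1 groups are the 4 neighbouring pairs that do not overlap. For MAPK3, 16 groups run from 9.70 log2 in NT day 3 cells to 9.39 log2 in parental day 7 cells with overlapping neighbours, and the 2 shERK1 groups follow at 8.16 and 8.15 log2. RPS6KA1 runs from 9.85 log2 with the ERK inhibitor at 3 h to 8.53 log2 with trametinib at 24 h, with both shERK2 groups (9.17 and 9.13 log2) just above the 4 inhibitor groups of 24 h. Its only break between neighbours is between shERK1 day 3 and shERK2 day 3. RPS6KA3 runs from 10.71 to 10.08 log2 and MAP2K2 from 9.71 to 9.06 log2. MAP2K1 runs from 12.27 to 11.49 log2 and ARAF from 8.53 to 8.06 log2, and in both all neighbouring groups overlap.

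KSR1 had group means between 5.18 and 5.60 log2, below the level for testing in every group, and the files hold no detection calls. In a fit of all 17875 genes its differences lay between -0.35 and 0.34 and passed in 2 of 27 comparisons. It had 5.47, 5.55 and 5.56 log2 with shERK2 on day 7, against 5.34, 4.99 and 5.22 log2 with NT (0.34, SE 0.12, adjusted p = 0.0231). The other was shERK1 against shERK2 on day 7, with 5.07, 5.18 and 5.28 log2 in shERK1 cells (-0.35, SE 0.12, adjusted p = 0.0185). Of the 17875 genes, 8139 passed in the first of these comparisons and 9252 in the second. KSR1 was not fitted without array a of the shERK2 day 7 group.

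Other genes of the pathway were counted by list at 24 h, beside the shares of all genes called: 69.2% with LGX818, 64.5% with trametinib, 67.2% with MEK162 and 65.2% with the ERK inhibitor. No count is read as particular to its list. Of 7 tested kinases downstream of ERK or p38 (8 listed), 2 rose and 2 fell with each inhibitor, below the share of all genes, and with LGX818 their median difference was 0.048 against 0.016 over all genes. RPS6KA5, which encodes the nuclear kinase MSK1, fell (-1.44 with LGX818, -1.35 with trametinib, -1.46 with MEK162 and -1.36 with the ERK inhibitor; SE 0.080 each). MKNK1, the ERK-activated kinase of the translation factor eIF4E, rose by 0.79, 0.62, 0.73 and 0.73 in the same order (SE 0.11 each). The other 2 named by the rule were MAPKAPK3, 0.44 with LGX818, and MAPKAPK5, -0.61 with LGX818. In shERK2 cells on day 7, RPS6KA5 fell (-1.07) and MKNK1 rose (0.49) against NT. In shERK1 cells on day 7 the differences from NT were -0.20 for RPS6KA5 (adjusted p = 0.0490) and -9.30e-04 for MKNK1 (adjusted p = 0.996).

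Of 21 tested scaffolds, chaperones and regulators of the cascade (28 listed), 6 rose and 6 fell with LGX818, 3 and 4 with trametinib, 5 and 4 with MEK162, and 6 and 4 with the ERK inhibitor, each below the share of all genes, and with LGX818 their median difference was -0.042 against 0.016 over all genes. MRAS, a RAS-family GTPase of the phosphatase complex that activates RAF, rose with LGX818 (0.75), as did PEA15, a cytoplasmic anchor of ERK (0.56). HSP90AB1, a chaperone of RAF kinases (-0.66), and YWHAH, an adaptor that binds phosphorylated RAF (-0.56), fell. Against NT, MRAS fell with shERK1 on day 3 (-0.62) and on day 7 (-0.69, SE 0.062 each). In shERK2 cells MRAS differed from NT by 0.013 on day 3 (adjusted p = 0.901) and rose by 0.40 on day 7. On day 7 against shERK2 cells, IQGAP1, a scaffold of MEK and ERK, was lower with shERK1 (-0.43, SE 0.056), and HSP90AB1 (0.53, SE 0.10) and YWHAE (0.44, SE 0.082) were higher. On day 7 against NT, none of the 21 rose and 3 fell with shERK1 (median 0.0018 against -0.0086 over all genes), and 4 rose and 7 fell with shERK2 (median -0.045 against 0.013). Of all genes, 17.9% passed with shERK1 and 64.2% with shERK2 in these comparisons, both larger shares than in the list.

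Of 10 tested adaptors and RAS regulators (16 listed), 5 rose and 2 fell at 24 h with each inhibitor, close to the share of all genes (64.5% to 69.2%), and with LGX818 their median difference was 0.11 against 0.016 over all genes. RASGRP3, an exchange factor that activates RAS, had a mean of 9.65 log2 with LGX818 and 6.23 log2 with DMSO (difference 3.41, SE 0.10). The DMSO mean is below the level for testing. GAB1, a docking adaptor of receptor kinases, rose by 1.86 with LGX818, and by 0.84 at 3 h. RASA2, a RAS GTPase-activating protein (-1.66), and GAB2, another docking adaptor (-0.62), fell with LGX818 at 24 h. The RASA2 means with LGX818, 6.67 log2, and in shERK2 cells on day 7, 7.66 log2, are below the level for testing. In shERK2 cells on day 7, RASGRP3 rose by 2.86 and GAB1 by 0.76 against NT. In shERK1 cells on day 7, the differences from NT were 0.68 for RASGRP3 (adjusted p = 0.0282) and 0.084 for GAB1 (adjusted p = 0.474). The shERK1 mean of RASGRP3, 6.48 log2, and the lower NT mean lie below the level for testing. The gene was tested in this arm through other groups, such as shERK2 on day 7 (8.66 log2). Its shERK1 difference is between low values and is not read as a rise. Against shERK2 cells on day 7, RASGRP3 (-2.18) and GAB1 (-0.68) were lower, and RASA2 (0.67) and GAB2 (0.39) higher, with shERK1.

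Of 8 tested MAP3 kinases (16 listed), 4 rose and 3 fell with LGX818 at 24 h, where 69.2% of all genes passed, with a median of 0.19 against 0.016 over all genes. With trametinib 2 rose and 2 fell, with MEK162 4 rose and 3 fell, and with the ERK inhibitor 3 rose and 2 fell, where 64.5%, 67.2% and 65.2% of all genes passed. MAP3K5, the stress-activated kinase ASK1, fell (-1.75 with LGX818, -2.09 with trametinib, -1.92 with MEK162 and -1.64 with the ERK inhibitor). Its mean with LGX818, 6.45 log2, is below the level for testing. In shERK2 cells it fell on day 3 (-1.38) and day 7 (-1.55) against NT, to a mean on day 7 of 6.72 log2, also below that level. In shERK1 cells MAP3K5 differed from NT by 0.026 on day 3 and 0.16 on day 7 (adjusted p = 0.959 and 0.328). The other MAP3 kinases named were MAP3K11 (0.61), MAP3K3 (0.44) and MAP3K1 (-0.66) with LGX818. Against shERK2 cells on day 7, MAP3K5 (1.71) and MAP3K7 (0.47) were higher, and MAP3K4 (-0.90) and MAP3K11 (-0.72) lower, with shERK1. Of 10 tested members of the parallel MAPK modules (17 listed), 4 rose and 2 fell with LGX818 (median -0.027 against 0.016 over all genes), below the 69.2% of all genes. These included NLK (0.54), MAP2K6 (0.51), MAPK12 (-0.35) and MAP2K3 (-0.30). In shERK1 against shERK2 cells on day 7, MAP2K6 (0.36) was higher, and MAPK12 (-0.55) and MAPK11 (-0.43) were among the 5 that were lower. The MAPK11 mean in shERK1 cells, 7.48 log2, is below the level for testing.

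The transcripts that report ERK activity were also counted in the shRNA arm. Of 9 tested (10 listed), none fell in shERK1 cells on day 3 and 2 fell on day 7 against NT, while 4 fell and 1 rose in shERK2 cells on day 3 and 7 fell and 1 rose on day 7. The shares of all genes called differed as well, at 4.66% on day 3 and 17.9% on day 7 with shERK1, and 33% and 64.2% with shERK2. DUSP6, the phosphatase that inactivates ERK, fell on day 7 with shERK1 (-0.29, SE 0.063, adjusted p = 0.00225) and with shERK2 (-0.62, SE 0.063, adjusted p = 2.72e-08). SPRY4 averaged 13.11 log2 with shERK1 and 12.39 log2 with shERK2 on day 7, against 13.11 log2 with NT. On day 7 ETV4 (1.42) and SPRY4 (0.72) were higher, and EPHA2 (-0.94) and CCND1 (-0.25) lower, in shERK1 than in shERK2 cells. After 24 h of inhibitor, 8 of the 9 fell with each agent, and the median differences were -2.74 with LGX818, -1.15 with trametinib, -1.92 with MEK162 and -1.05 with the ERK inhibitor. Of all genes tested, 33.8%, 33%, 33.8% and 31.5% fell in that order. The medians over all genes were 0.016, -0.0033, 7.0e-04 and 0.016. With LGX818 SPRY4 fell (-5.52), to a mean of 7.74 log2, below the level for testing, and so did ETV5, an ETS transcription factor (-4.45).

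The genes whose 18 group means followed each kinase most closely were taken from 9455 genes tested in both arms, as a description over groups that share platform and normalisation. MAPK3 was followed by NDUFA7 (Pearson r = 0.987), COX7A2L (0.984) and IQGAP1 (0.956). RPS6KA1 was followed by NUP155 (0.993), IFT25 (0.980) and KARS1 (0.979), and RPS6KA2 by SH3PXD2B (0.963), ABCB4 (0.947) and MRAS (0.944). MAP2K2 was followed by KLF12 (0.951), OTUD7B (0.948) and FNIP1 (0.946), MAP2K1 by PTDSS1 (0.914), DNAJA3 (0.911) and ADCY3 (0.888), and ARAF by TBC1D9B (0.913), PPARD (0.907) and ARHGAP17 (0.900). The closest to RPS6KA3 were CXCL14 (0.912), ABHD12 (0.893) and P3H2 (0.891), and those to KSR1 were ZBTB17 (0.829), SIL1 (0.811) and TPM2 (0.810).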

How the data were processed

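Each value the authors deposited is a log2 level of 1 probe set on 1 array. The submitters' processing notes name RMA and the affy package, without versions. RMA subtracts background, makes the arrays' distributions alike by quantile normalisation and combines a set's probes, so small changes shared by most genes are removed. Neither a chip definition nor a genome build is named; both are not given in the sources used here. Of 18989 probe sets, 17875 carry 1 gene symbol in the probe table, 62 are controls and 1052 are not listed there. Arrays have no read depth, so their number limits the precision.

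A gene was tested if a group of that arm averaged more than 7.86 log2, the median over every value, and 9703 genes (inhibitors) and 9779 genes (shRNAs) met this. Each arm was fitted with limma 3.58.1 in R 4.3.3 (lmFit, then eBayes with an intensity trend), with 1 mean per group and 20 or 16 residual degrees of freedom, and p was Benjamini-Hochberg adjusted within each of 27 comparisons. Alternatives were no filter, a stricter filter, no trend, arrays centred on their medians, only the groups compared, all arrays together, the array letter as a block, and each array left out.

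The kinases and lists were chosen with earlier results of these data known. All measured kinases were named, with the 3 genes most correlated with each over group means. From each list, up to 2 called genes with the largest rise and 2 with the largest fall were named per arm, from the comparison with the most calls (LGX818 at 24 h against DMSO, and shERK1 against shERK2 on day 7), and SPRY4 and DUSP6 as reporters of ERK activity. One listed kinase and the cells' genotype are not reported here. Promoter windows come from RefSeq tables of GRCh38.p14.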

Additional observations from a re-analysis of the deposited data

Results flagged for a closer look

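For 3 kinases the effect of an inhibitor at 24 h differed from its effect at 3 h by a test of that difference in limma, as described above. For RPS6KA1 the 24 h effect minus the 3 h effect was -0.93 with LGX818 (SE 0.15, adjusted p = 1.26e-05) and -1.24 with trametinib (SE 0.15, adjusted p = 1.78e-07). It was -1.22 with MEK162 (SE 0.15, adjusted p = 2.18e-07) and -1.04 with the ERK inhibitor (SE 0.15, adjusted p = 3.30e-06). For RPS6KA2 it was 0.88 with LGX818 (SE 0.095, adjusted p = 1.36e-08) and 0.71 with trametinib (SE 0.095, adjusted p = 6.08e-07). It was 0.77 with MEK162 (SE 0.095, adjusted p = 1.71e-07) and 0.57 with the ERK inhibitor (SE 0.095, adjusted p = 1.80e-05). These 8 differences held in all 19 alternative fits of each. For MAP2K2 it was 0.40 with the ERK inhibitor (SE 0.15, adjusted p = 0.0298), a call that held in 14 of 19 alternative fits. Between 48.7% and 52% of all genes passed in these comparisons, which share the DMSO arrays.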

How the results depend on the processing

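Of 2682 alternative values of 189 kinase differences, 2570 kept their side of the threshold, 62 lost it and 50 gained it, and none of the called differences changed sign. The counts of kinases called moved as follows. For trametinib against DMSO at 3 h the count of 1 became 0 with no filter and 0 without the intensity trend, and 0 to 2 with 1 array left out. For DMSO at 24 h against 3 h the count of 0 became 2 with centred arrays, 1 with all arrays fitted together and 1 with only the groups compared, and 0 to 1 with 1 array left out. With only the groups compared, shERK2 against NT became 5 in place of 2 on day 3 and 1 in place of 4 on day 7, shERK2 against parental cells 4 in place of 2 on day 3 and 2 in place of 4 on day 7, and shERK1 against shERK2 4 in place of 2 on day 3 (also 4 with centred arrays) and 2 in place of 4 on day 7. Calls among all genes moved as well. With only the groups compared, they went on day 3 from 3225 to 5127 for shERK2 against NT and from 2639 to 3946 against parental cells. For trametinib at 3 h they went from 1094 to 1057 with no filter and 1088 without the trend. For DMSO they went from 3043 to 3022 with centred arrays, 3048 with all arrays fitted together and 2856 with only the groups compared. With 1 array left out, the count ran from 0 to 2 for shERK2 against NT on day 3, from 1 to 2 for shERK2 against parental cells on day 3, from 0 to 1 for NT against parental cells on day 3 and from 0 to 2 for the shERK2 effect on day 7 minus that on day 3. With only the groups compared, calls among all genes are not given here for the day 7 comparisons or for shERK1 against shERK2 on day 3. The moves of the kinase counts in those comparisons are therefore not read as particular to the kinases. The cause of the moves in all these counts was not tested.

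The array letters showed no steady pairing: over 63 pairs of same-letter arrays the correlation of deviations from the group means ran from -0.45 to 0.42, with a median of 0.010. In 1 of 21 comparisons, MEK162 against DMSO at 24 h, every pair was over 0.1 (0.23, 0.20 and 0.29). At 3 h, array c of each inhibitor correlated best with array c of DMSO (0.39 with LGX818, 0.13 with trametinib, 0.42 with MEK162 and 0.30 with the ERK inhibitor). Whether same-letter arrays shared a culture or day cannot be told from these values. With the letter as a replicate block, DMSO at 24 h against 3 h gave 1 call in place of 0, MAP2K1 (adjusted p = 0.0497). The block also added MAP2K1 in shERK1 against shERK2 on day 3 (adjusted p = 0.0424) and in shERK1 against parental cells on day 7 (adjusted p = 0.0435), and ended no kinase call.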
